A study of Mus musculus with 4 samples.

Results

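RNA of 30 digestive enzyme and secretory granule genes of the exocrine pancreas was followed across leukocytes of the pancreas and of its draining lymph node. The genes were taken by name from a list of 31, of which 30 were among the 31053 genes counted. Amy2b was absent from the features. Leukocyte and exocrine barcodes were compared for these genes. Leukocyte barcodes were gated on marker genes, and exocrine barcodes were those in which the members made at least 20% of the unique molecular identifiers (UMIs).

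Single-cell libraries that count the 5′ ends of transcripts were made from pre-diabetic female mice, with 1 library in each of 4 groups. The pancreas pair held CD45+ leukocytes sorted by flow cytometry at 12 weeks of age, pooled from 4 mice per library. The lymph node pair held CD3 T cells taken by magnetic separation from pancreatic lymph nodes at 8 weeks, pooled from 5 mice per library. The control animals were Ocabfl/fl, and the others were Ocabfl/fl.CD4-Cre, in which Cre recombinase driven by the Cd4 promoter can delete Ocab (Pou2af1, a transcriptional coactivator of lymphocytes) in T cells. Both genotypes therefore carried the floxed alleles, and the labels name no strain. Because Cd4 is active in thymocyte precursors, the deletion is not limited to CD4 T cells. Tissue, age and cell selection differed together between the pairs, so genotypes were compared within the pancreas, and the lymph node served as a reference from outside the pancreas. With 1 library per group no test between groups was possible, and each interval given below is a 95% interval for counting error.

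Acinar cells make and store digestive enzymes in zymogen granules and release them into the pancreatic duct. Trypsinogens are cut by enteropeptidase in the gut, and the trypsin they give activates the other proenzymes, among them chymotrypsinogens, proelastases, procarboxypeptidases and prophospholipase A2. Lipases digest dietary fat with the help of colipase, and amylase digests starch. Most of these genes are regarded as acinar, although Pnliprp2 has also been described in cytotoxic T lymphocytes. Acinar transcripts are so abundant that they are often found in droplets of other cells from the pancreas.

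The 7 trypsinogen genes among the members are closely related copies, which bears on how reads are assigned to them. The first 90 coding bases of each are shown because a 5′ library reads this end of the transcript. They were read from GENCODE M21 transcripts (GRCm38), and the capitals mark the 4 aspartate codons and the lysine codon at which enteropeptidase cuts.
Prss2: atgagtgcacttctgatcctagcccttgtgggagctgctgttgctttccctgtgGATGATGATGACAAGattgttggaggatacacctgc
Prss1: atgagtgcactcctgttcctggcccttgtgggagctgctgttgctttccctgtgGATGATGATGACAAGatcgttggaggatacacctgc
Prss3: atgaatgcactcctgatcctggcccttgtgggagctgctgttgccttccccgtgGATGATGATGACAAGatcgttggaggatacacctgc
Try4: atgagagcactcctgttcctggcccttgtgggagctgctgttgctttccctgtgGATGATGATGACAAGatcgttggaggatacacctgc
Try5: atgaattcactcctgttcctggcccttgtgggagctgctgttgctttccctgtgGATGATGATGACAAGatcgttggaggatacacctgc
Try10: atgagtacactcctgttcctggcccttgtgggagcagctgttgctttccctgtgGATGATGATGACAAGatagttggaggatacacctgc
2210010C04Rik: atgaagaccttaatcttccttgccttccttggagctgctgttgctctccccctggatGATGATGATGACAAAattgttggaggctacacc
Over the whole coding sequence of 741 bases, Try4 and Try5 were identical at 97.4% of positions, Prss1 and Prss3 at 96.4%, and Prss2 and Prss3 at 88.7%. Of all stretches of 91 coding bases, 54.1% of those in Prss3, 37.9% in Try4, 32.1% in Try5, 29.0% in Prss1 and 19.1% in Try10 occurred letter for letter in another annotated gene. For Prss2 and 2210010C04Rik the share was 0%. Counts of Prss1, Prss3, Try4, Try5 and Try10 are therefore uncertain between copies. The same held for Amy2a5, where 100% of stretches occurred in other amylase genes, and in part for Cela2a (19.8%, shared with Ctrc, which overlaps it on chromosome 4) and Cela3b (12.1%, shared with Cela3a).

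The pancreas control library listed 4524 barcodes and 20807342 UMIs, and the pancreas CD4-Cre library 6963 barcodes and 32798133 UMIs. The lymph node libraries listed 3059 and 6528 barcodes with 14851217 and 27830077 UMIs. Median depth was 3521.5 to 4567 UMIs per barcode. Pou2af1, the targeted gene, had 5.63 CPM (UMIs of a gene scaled to a common total) in T barcodes of the pancreas control library and 0.624 in CD4-Cre, and 4.60 and 0.112 in the lymph node, while B barcodes of the pancreas had 227 and 248 CPM. Pairs of libraries shared 21 to 70 barcode sequences, and 1 barcode of the pancreas pair had a member UMI in both. Barcodes with at least 3 UMIs from at least 2 markers of 1 cell type, and of no other, formed the T, B, NK, macrophage, dendritic and neutrophil gates. In the pancreas, 509 control and 801 CD4-Cre barcodes reached more than 1 gate and were left out as possible doublets. Their member share was 0.0770% and 0.0484%.

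Exocrine barcodes were rare and small. There were 17 in the pancreas control library, or 0.376% of listed barcodes (0.219% to 0.601%), and 22 in CD4-Cre, or 0.316% (0.198% to 0.478%). Each lymph node library had 1, with 118 member UMIs of 574 and 438 of 954. The threshold of 20% fixes their member share, with a range of 21.6% to 91.3% in the control library and 21.3% to 92.1% in the other. The barcodes nearest below the threshold had 14.1% and 13.9%. Median depth was 658 and 816.5 UMIs, and the median number of detected genes was 106 and 88.5. None of the 17 control barcodes and 3 of the 22 CD4-Cre barcodes passed the filter of at least 500 genes and at most 10% mitochondrial UMIs. In control 9 of 17 exceeded 10% mitochondrial UMIs, and in CD4-Cre 4 of 22 did. Ptprc, which encodes CD45, the protein used for sorting, had a UMI in 1 control and 2 CD4-Cre exocrine barcodes, with 2 and 5 UMIs in all. That was 136 CPM (16.5 to 491.5) and 112 CPM (36.5 to 262.3), with member UMIs in the total. Few Ptprc UMIs can be counted at this depth, so the low number does not show that leukocyte RNA was lacking. Some exocrine barcodes reached the marker minimum of a gate. These were 2 of 17 in control (1 T, 1 macrophage) and 3 of 22 in CD4-Cre (2 T, 1 B). Over all control exocrine barcodes, macrophage markers stood at 612 CPM. Over those of CD4-Cre, T markers stood at 495 CPM and B markers at 742 CPM. NK and neutrophil markers were at 0 in both libraries. The exocrine barcodes were thus not all free of leukocyte RNA. A single CD4-Cre barcode held 16748 member UMIs of 22076 in total, 54.6% of all member UMIs in the exocrine barcodes of its library.

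Chymotrypsinogens and elastases made the largest part of the member RNA in exocrine barcodes. Ctrb1, a chymotrypsinogen, was the leading member, with 1826 UMIs in control and 6046 in CD4-Cre, or 19.1% and 19.7% of member UMIs. Cela2a, an elastase, followed with 9.97% and 11.7%, and Cela1, another elastase, had 4.64% and 5.63%. With Cela3b (an elastase), Ctrc and Ctrl (chymotrypsin-like proteases), this group of 6 genes held 41.5% and 45.5%. The trypsinogens held 27.2% and 23.3%, led by Prss2 (7.37% and 7.97%), Try4 (9.30% and 6.27%) and Try5 (6.72% and 4.49%). Of the other trypsinogens, 2210010C04Rik had 344 and 1360 UMIs, Try10 8 and 48, Prss3 10 and 2, and Prss1 0 in every library. The lipid enzymes held 16.7% and 15.8%, with pancreatic lipase Pnlip at 6.30% and 6.04%, colipase Clps at 5.96% and 5.45%, and bile salt-activated lipase Cel at 2.68% and 2.16%. The lipase relatives Pnliprp1 and Pnliprp2 had 88 and 23 UMIs in control, and phospholipase A2 Pla2g1b had 62. The carboxypeptidases Cpa1 and Cpb1 together held 6.27% and 6.94%. Ribonuclease Rnase1 held 2.05% and 2.09%. Among granule proteins, syncollin (Sycn) held 3.03% and 2.72% and Zg16 1.46% and 1.90%, while Gp2, the granule membrane glycoprotein, had 33 and 101 UMIs and Cuzd1 5 and 20. Of the Reg family of secreted lectins, Reg1 had 127 and 380 UMIs, whereas Reg2 and Reg3b had at most 1.

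Amylase was nearly missing from the counts. Amy2a5 had 8 UMIs in each whole pancreas library, of which 6 and 7 were in exocrine barcodes, and its listed copies Amy2a1 to Amy2a4 had 0 to 3 each. Since every stretch of 91 coding bases of Amy2a5 was shared with such copies, these counts give no level of amylase RNA.

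The make-up was alike in the pancreas libraries. Over the 30 members the shares in exocrine barcodes had a Pearson correlation of 0.979 and a Spearman correlation of 0.987 between the libraries, as a description, and 0.982 and 0.980 without the largest CD4-Cre barcode. Among genes outside the list, 9 mitochondrial genes had 2.38 to 3.22 times the CPM of the 6 gates together in exocrine barcodes. Insulin and other islet genes had 0 UMIs in exocrine barcodes, red cell genes 0, and duct genes 0 and 3. At this depth 0 UMIs allowed up to 250.9 CPM in control and 82.9 CPM in CD4-Cre, so these counts do not show absence.

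All 6 leukocyte gates of the pancreas contained member RNA, at levels that differed by cell type. Macrophage barcodes (154 in control, 141 in CD4-Cre) held the highest share of member UMIs, 0.213% (0.205% to 0.221%) in the control library and 0.158% (0.151% to 0.165%) in CD4-Cre. NK barcodes (247 and 323) held the lowest, 0.00951% (0.00769% to 0.0116%) and 0.00851% (0.00706% to 0.0102%). The macrophage share was 22.4 times the NK share in control (18.2 to 27.8) and 18.5 times in CD4-Cre (15.4 to 22.4). T barcodes (2028 and 3722) had 0.0256% and 0.0262%, and B barcodes (912 and 1348) had 0.0419% and 0.0483%. Dendritic barcodes (73 and 70) had 0.0432% and 0.0865%, and neutrophil barcodes (138 and 75) had 0.0767% and 0.0352%. The share was lowest in the deepest macrophage barcodes of both libraries. In quartiles of macrophage barcodes by UMIs of other genes, from the shallowest, it was 0.336%, 0.259%, 0.360% and 0.0802% in control and 0.114%, 0.136%, 0.347% and 0.0649% in CD4-Cre. Between gates, the order NK, T, B and macrophage from low to high held in both libraries, and the dendritic and neutrophil gates changed places. UMIs per barcode were far more uneven than counting error allows, with a variance of 7.03 to 346 times the mean, so the counting intervals are too narrow.

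**Figure D1:**
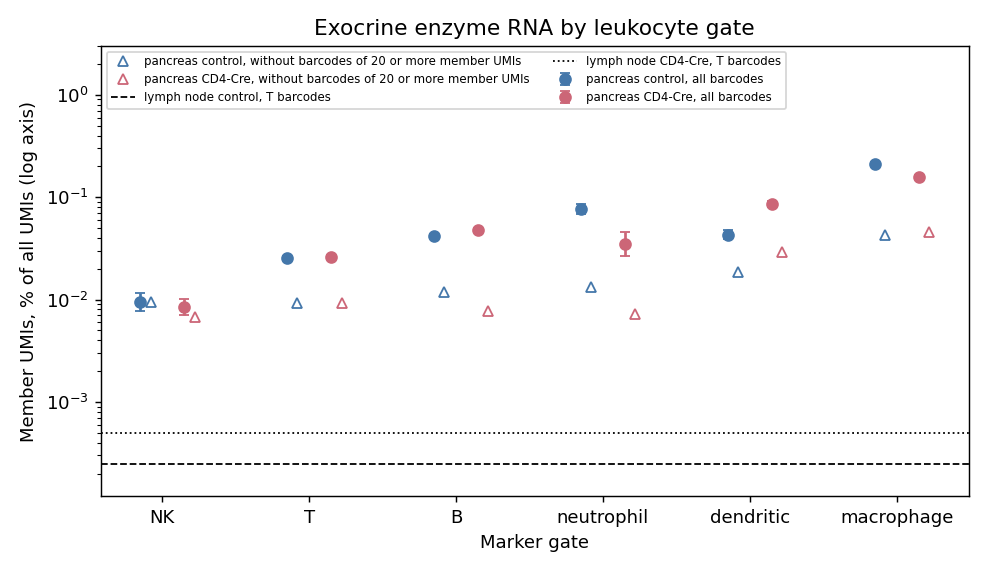
Member UMIs as a percent of all UMIs (log axis) in each marker gate of the 2 pancreas libraries, with 95% counting intervals as bars on filled points. Open triangles leave out barcodes with 20 or more member UMIs, and lines mark T barcodes of the lymph node libraries. Macrophage barcodes were highest at 0.213% and 0.158%, and all points lay above the lymph node lines at 0.000248% and 0.000500%.

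Macrophage and dendritic barcodes led when barcodes rather than UMIs were counted, but the order of the gates differed from that by UMIs. In CD4-Cre the dendritic gate was above the macrophage gate and B barcodes were the lowest of T, B and NK. A member UMI was found in 73.4% of control and 71.6% of CD4-Cre macrophage barcodes and in 64.4% and 78.6% of dendritic barcodes. In NK barcodes, the gate with the lowest share of UMIs, it was found in 11.3% (7.67% to 16.0%) and 12.1% (8.73% to 16.1%) at median depths of 3759 and 4050 UMIs. T barcodes had 14.7% and 14.6% at 3361 and 3465.5 UMIs, and B barcodes 15.02% and 11.4% at 3562 and 3409. Macrophage and dendritic barcodes were deeper, with medians of 7444.5 and 14255 UMIs in control. After each barcode was thinned to 1000 UMIs, the share with a member was 47.1% (39.0% to 55.3%) and 39.6% (31.4% to 48.2%) in macrophage barcodes, 23.3% and 31.4% in dendritic, 10.0% and 6.05% in B, 8.15% and 9.59% in neutrophil, 6.64% and 7.12% in T, and 4.90% (2.56% to 8.399%) and 4.69% (2.65% to 7.61%) in NK. The macrophage and NK intervals stayed apart at equal depth. The T, B and neutrophil intervals overlapped that of NK barcodes in the same library, although in control the B interval (8.16% to 12.2%) met it only at its upper end. T barcodes of the lymph node had 0.796% and 0.975% before thinning, at depths of 4690 and 4502 UMIs, and 0.218% and 0.290% after it.

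**Figure D2:**
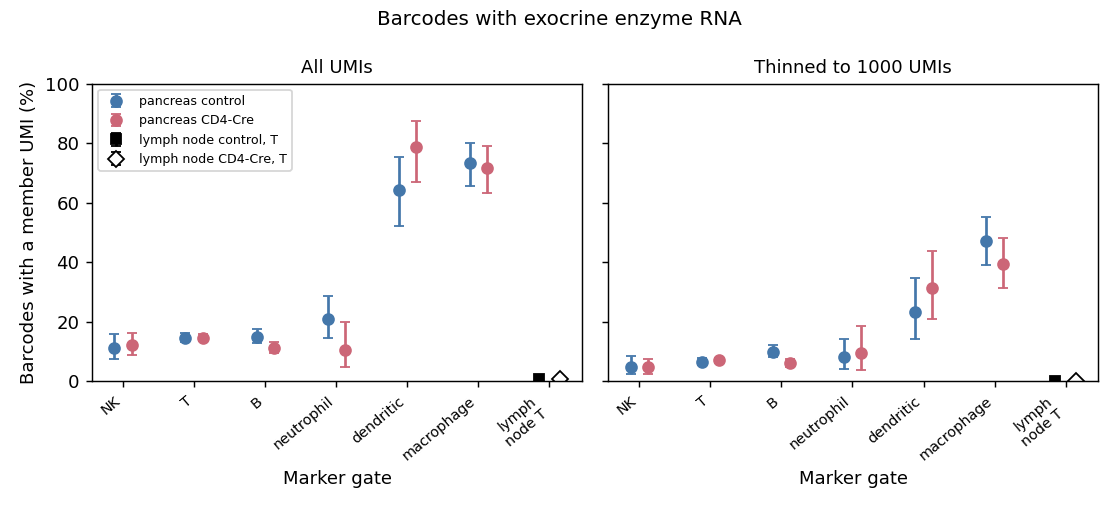
Percent of barcodes with at least 1 member UMI by gate, with exact 95% binomial intervals, from all UMIs (left) and after thinning to 1000 UMIs (right). Macrophage and dendritic barcodes stayed above NK, T and B barcodes after thinning, at 23.3% to 47.1% against 4.69% to 10.0%, and lymph node T barcodes were at 0.290% or less.

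Most of the member RNA in the gates sat in few barcodes. In T barcodes 18 of 2028 (0.888%) in control and 21 of 3722 (0.564%) in CD4-Cre had 20 or more member UMIs and held 64.4% and 64.9% of the gate's member UMIs. In B barcodes 18 of 912 and 27 of 1348 held 72.5% and 84.5%. In macrophage barcodes 31 of 154 (20.1%) and 18 of 141 (12.8%) held 84.1% and 75.3%. The NK gate had 0 of 247 and 1 of 323 such barcodes, the dendritic gate 6 of 73 and 5 of 70, and the neutrophil gate 2 of 138 and 1 of 75. These member-rich barcodes carried many members at once, from 8 to 25 of the 30. At the other end, 56.0% and 59.8% of T barcodes with any member RNA had a single member.

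Leaving out member-rich barcodes lowers a share by construction, and the control NK gate had none to leave out. T barcodes then had 0.00922% and 0.00926%, NK barcodes 0.00951% and 0.00678%, B barcodes 0.0118% and 0.00770%, neutrophil barcodes 0.0133% and 0.00719%, dendritic barcodes 0.0187% and 0.0292%, and macrophage barcodes 0.0423% and 0.0455%. The ratio of the highest to the lowest gate was then 4.59 in control (macrophage over T) and 6.70 in CD4-Cre (macrophage over NK). Marker levels in member-rich barcodes differed by gate, and every barcode had to carry markers to enter one. Summed T markers stood at 5321 CPM in the 18 member-rich T barcodes of control and 4930 CPM in the rest, and at 4762 and 4944 CPM in CD4-Cre. B markers stood at 7087 against 8501 CPM and 8611 against 8757 CPM, and macrophage markers at 16595 against 11934 CPM and 8937 against 8434 CPM. The 2 member-rich neutrophil barcodes of control had 6083 CPM of neutrophil markers against 17448 in the rest, the 1 of CD4-Cre 39428 against 16039, and the member-rich NK barcode of CD4-Cre 2532 CPM of NK markers against 5852. UMIs of other genes had a median of 3609.5 in member-rich and 3357 in other T barcodes of control, but 5047 against 3463 in CD4-Cre and 5618 against 3388 in CD4-Cre B barcodes. Free RNA in a droplet, RNA carried by a cell and a leukocyte sharing its droplet with acinar material cannot be told apart in these counts.

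Other RNA that belongs to 1 cell type was set beside these values. Igkc, S100a8 and S100a9, which mark B cells and neutrophils, summed to 18.2 and 19.4 CPM in T barcodes, 9.11 and 6.97 in NK, 5.92 and 5.33 in macrophage and 34.8 and 38.0 in dendritic barcodes. Among these gates that RNA was lowest in macrophage barcodes, where the members were highest, but few UMIs were counted. Macrophage barcodes had 8 and 7 UMIs and NK barcodes 9 and 10. Their intervals overlapped in control (2.556 to 11.67 against 4.164 to 17.29 CPM) and in CD4-Cre (2.145 to 10.99 against 3.344 to 12.82 CPM). Macrophage barcodes were thus not separated from NK barcodes for this RNA. Islet genes, counted over 11 genes and made up mostly of Ins1 and Ins2 (insulin), had 354 and 151 CPM in macrophage, 159 and 125 in dendritic, 7.99 and 13.5 in T, 2.25 and 1.41 in B, and 0 and 0.697 in NK barcodes. The macrophage and dendritic gates were thus highest for islet RNA. For exocrine RNA they were highest in CD4-Cre, while in control the neutrophil gate lay between macrophage and dendritic barcodes. The 2 kinds were not concentrated in the same macrophage barcodes. An islet gene was found in 1 of 31 member-rich and 23 of 123 other macrophage barcodes of control, and in 1 of 18 and 11 of 123 in CD4-Cre.

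The list of 24 other acinar genes, of which 23 were counted, moved with the gates as well, at 307 and 274 CPM in macrophage, 242 and 285 in dendritic, and 9.57 and 9.92 in T barcodes. That total was mostly Gatm, a creatine synthesis enzyme, with 266 and 232 CPM in macrophage and 165 and 239 in dendritic barcodes but 68.0 and 89.9 in exocrine barcodes, so it does not follow acinar RNA. Klk1, a kallikrein of acinar cells, had 75.3 and 35.9 CPM in dendritic barcodes, above its 4.44 and 16.0 CPM in macrophage barcodes. The duct list had 108 and 89.7 CPM in dendritic and 8.88 and 11.4 in macrophage barcodes. Epcam, an epithelial adhesion gene, gave 101 of the 115 UMIs in control dendritic barcodes and 62 in CD4-Cre, while Krt19, Sox9, Cftr and Tspan8 had 0 in both. Stroma and vessel genes had 201 and 18.0 CPM in dendritic and 18.5 and 18.3 in macrophage barcodes. Red cell genes were uneven, with 666 and 0.486 CPM in T and 15.2 and 1668 in NK barcodes, against 1.48 and 1.52 in macrophage barcodes. The high values came from few barcodes, since 0.641% of control T and 0.310% of CD4-Cre NK barcodes had a red cell UMI. The part of these lists in the member values was not tested.

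The members kept nearly the same proportions in B barcodes as in exocrine barcodes. Over 30 members the Pearson correlation of the make-up was 0.986 in control and 0.990 in CD4-Cre, and it was 0.866 and 0.860 in T, 0.943 and 0.901 in macrophage, 0.968 and 0.926 in neutrophil, 0.888 and 0.570 in NK, and 0.622 and 0.731 in dendritic barcodes. In member-rich T barcodes the correlation was 0.970 and 0.984, and in the other T barcodes 0.583 and 0.467. By rank the B gate did not stand apart. The Spearman correlation was 0.986 and 0.987 in B, 0.979 and 0.976 in T, and 0.985 and 0.983 in macrophage barcodes. It was 0.965 and 0.844 in neutrophil, 0.904 and 0.911 in NK, and 0.887 and 0.914 in dendritic barcodes. These are descriptions over members of the same libraries. By role, trypsinogens held 23.5% and 23.0% of member UMIs in T barcodes, 25.3% and 22.7% in B, and 23.3% and 21.9% in macrophage barcodes, against 27.2% and 23.3% in exocrine barcodes. The dendritic gate of control stood lower, at 16.8% (13.5% to 20.5%), and that of CD4-Cre at 28.0%, while NK barcodes had 21.3% and 32.8%. The chymotrypsinogens and elastases held 34.9% and 36.7% in T, 41.0% and 44.8% in B and 40.3% and 38.5% in macrophage barcodes. The lipases with colipase stood higher than in exocrine barcodes, at 27.8% and 26.8% in T, 22.7% and 26.6% in macrophage and 36.4% and 25.6% in dendritic barcodes.

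**Figure D3:**
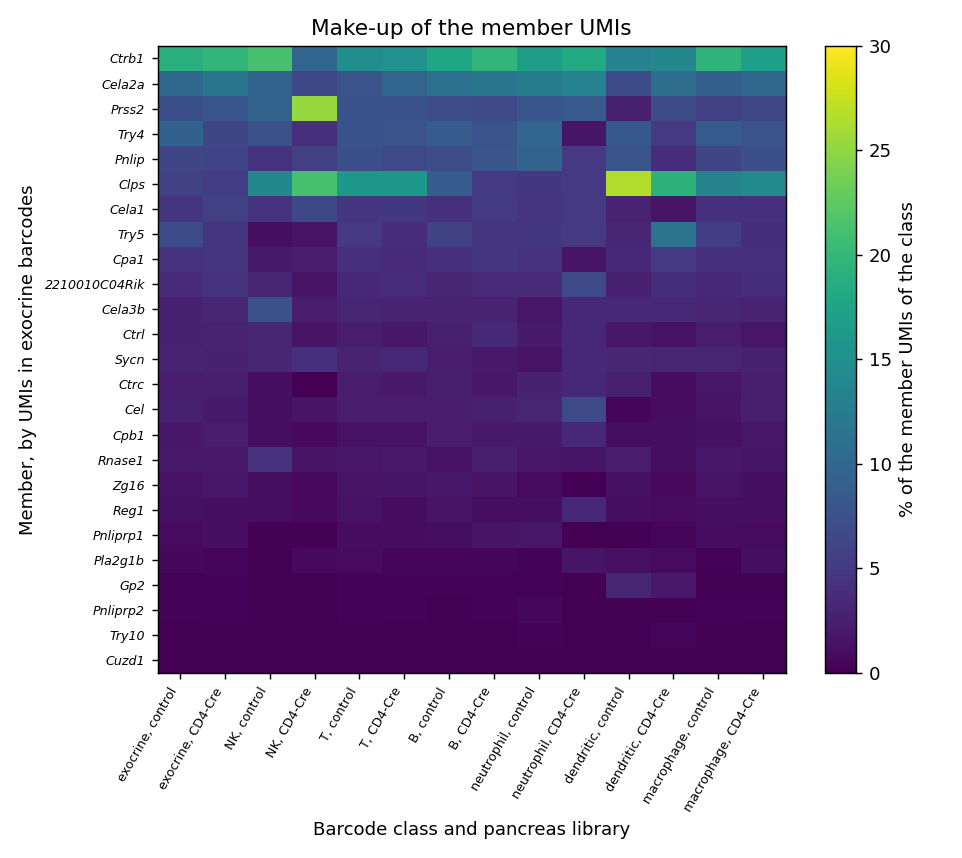
Percent of the member UMIs of each barcode class that came from each of the 25 most counted members (rows, ordered by UMIs in exocrine barcodes), for each pancreas library. The Clps row is brighter in T, macrophage and dendritic columns (13.4% to 26.6%) than in exocrine columns (5.96% and 5.45%).

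Colipase held most of that difference. Clps (chr17:28558149-28560766, minus strand) encodes the cofactor that lets pancreatic lipase act in the presence of bile salts. It had 313 UMIs in 140 control T barcodes and 604 in 290 CD4-Cre T barcodes, or 41.0 and 41.9 CPM. It made 16.0% of member UMIs in T barcodes of both libraries, 13.4% and 14.4% in macrophage, 26.6% and 19.4% in dendritic and 13.8% and 21.3% in NK barcodes, against 5.96% (5.50% to 6.46%) and 5.45% (5.20% to 5.71%) in exocrine barcodes. B barcodes stood nearer to exocrine barcodes, with 8.64% and 4.99%, and neutrophil barcodes had 4.91% and 5.00%. The neutrophil values rest mostly on 1 barcode per library, which held 248 of 326 and 48 of 60 member UMIs. They say little of the other neutrophil barcodes. Set against Ctrb1, there were 1.08 Clps UMIs per Ctrb1 UMI in control T barcodes (0.914 to 1.27) and 1.06 in CD4-Cre (0.942 to 1.19), 0.488 and 0.253 in B, 0.686 and 0.854 in macrophage and 2 and 1.39 in dendritic barcodes. Exocrine barcodes had 0.312 (0.284 to 0.343) and 0.276 (0.262 to 0.292). The ratio of these 2 genes therefore differed between T and B barcodes of the same library by more than counting error.

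Over the 6 gates together, the share of Clps fell as a barcode held more member RNA. Over the 6 gates of control it was 34.5% (30.2% to 38.9%) in barcodes with 1 to 2 member UMIs, 25.7% with 3 to 5, 17.7% with 6 to 19, and 9.90% (9.12% to 10.7%) with 20 or more. In CD4-Cre it was 35.7% (32.1% to 39.4%), 33.8%, 21.0% and 7.18% (6.58% to 7.81%). Ctrb1 went the other way, from 11.1% to 18.7% in control and from 8.84% to 18.5% in CD4-Cre, where it nearly met the exocrine value. The mix of gates differed between these groups. In CD4-Cre, T barcodes were 383 of 546 at 1 to 2 member UMIs and 21 of 73 at 20 or more. Within T barcodes of both libraries Clps also fell at each step, to 9.54% and 6.37%. Other gates did not all follow. In CD4-Cre, Clps made 19.35%, 32.9%, 24.9% and 10.7% in macrophage barcodes, and Ctrb1 19.1%, 28.3%, 23.5% and 19.1% in B barcodes. At 1 to 2 member UMIs, Clps made 34.6% in control T and 26.4% in control B barcodes with overlapping intervals, but 39.4% (35.1% to 43.9%) in CD4-Cre T and 23.6% (16.1% to 32.7%) in CD4-Cre B barcodes. Clps was the only member detected in 65 T barcodes of control (81 UMIs) and 137 of CD4-Cre (177 UMIs), more than Ctrb1 with 20 and 23. T barcodes of the lymph node had 2 and 4 Clps UMIs in all, or 0.142 and 0.149 CPM.

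**Figure D4:**
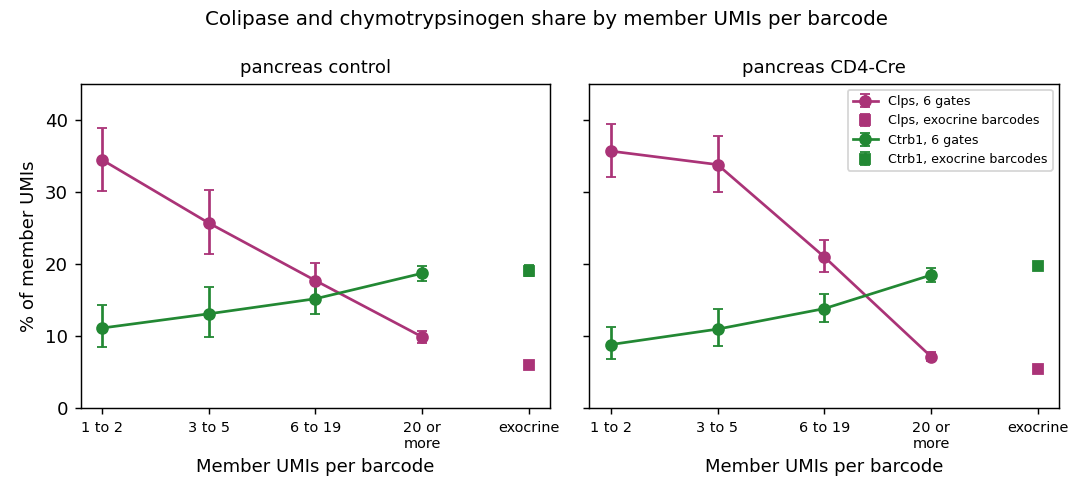
Clps and Ctrb1 as a percent of all member UMIs, in barcodes of the 6 gates grouped by their number of member UMIs (circles) and in exocrine barcodes (squares), with exact 95% binomial intervals. Clps ran from 34.5% to 9.90% in control and from 35.7% to 7.18% in CD4-Cre, while Ctrb1 rose toward its exocrine level of 19.1% and 19.7%.

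Single barcodes spread widely around these values. Among exocrine barcodes the Clps share had a median of 4.56% in both libraries, with a range of 2.81% to 13.9% among control barcodes and of 1.40% to 36.4% among those of CD4-Cre. In member-rich macrophage barcodes the median was 11.5% (1.49% to 59.4%) and 12.0% (3.70% to 44.0%). Of these, 24 of 31 and 17 of 18 lay above the exocrine median, and 11 of 31 and 1 of 18 above the highest exocrine barcode. Member-rich B barcodes had medians of 5.50% and 3.57%, and member-rich T barcodes 4.33% and 6.76%. Medians in control T and CD4-Cre B barcodes were thus below the exocrine median, and the ranges of all these groups overlapped.

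Besides Clps, the members that stood more than 2-fold from their exocrine proportion, with at least 20 UMIs, were 3 cases in the CD4-Cre library. Try5 made 11.6% of member UMIs in dendritic barcodes against 4.49%, with 84 of its 95 UMIs in 1 barcode. Prss2 made 25.4% in NK barcodes against 7.97%, with 17 of 31 UMIs in 1 barcode and 29 of 31 in 4 barcodes without any other member. Pla2g1b made 1.16% in macrophage barcodes (24 UMIs in 15 barcodes) against 0.548%, while in control macrophage barcodes it made 0.348%. Gp2, which also serves intestinal M cells as a receptor for bacteria, had fewer than 20 UMIs in each gate. It had 14 UMIs in 4 control dendritic barcodes, 9 of them in 3 barcodes without another member, and 17 UMIs in 4 CD4-Cre dendritic barcodes, 14 of them in 1. Elsewhere it had at most 9 UMIs per gate.

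The leading members were compared gate by gate on the CPM scale. Ctrb1 (chr8:111686519-111691010, minus strand) had 417 and 266 CPM in macrophage, 129 and 64.5 in neutrophil, 74.2 and 95.1 in B, 57.4 and 120 in dendritic, 38.1 and 39.6 in T and 20.2 and 8.37 in NK barcodes. Cela2a had 195 and 160 CPM in macrophage, 46.5 and 56.2 in B, 19.5 and 25.5 in T and 9.11 and 5.58 in NK barcodes. Pnlip had 132 and 116 CPM in macrophage and 18.9 and 17.3 in T barcodes. Try4 had 181 and 121 CPM in macrophage and 19.3 and 20.04 in T barcodes. Try5 had 118 and 61.0 CPM in macrophage and 12.8 and 9.85 in T barcodes, and in CD4-Cre it was highest in dendritic barcodes (100.3 CPM). Prss2 had 120 and 101 CPM in macrophage, 19.3 and 19.9 in T and 9.11 and 21.6 in NK barcodes. Cela1 had 86.6 and 65.5 CPM in macrophage and 12.2 and 12.7 in T barcodes. Macrophage barcodes were thus above T and NK barcodes in both libraries for each of these 7 genes and for Clps (286 and 227 CPM).

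T barcodes of the lymph node were nearly free of member RNA. Control had 35 member UMIs in 2763 barcodes, 0.000248% of UMIs, and CD4-Cre had 134 in 5538 barcodes, 0.000500%. Of the 30 members, 18 in control and 13 in CD4-Cre had 0 UMIs, which allows up to 0.212 and 0.112 CPM each. The few UMIs did not have the exocrine make-up. Prss2 and Ctrl made up most of them in control, and Prss2, Try5 and Ctrl in CD4-Cre. Without these 3 genes 15 and 30 UMIs were left. Ctrb1, the leading member of exocrine barcodes, had 0 and 3 UMIs, and Cela2a had 1 and 3. Clps had 2 and 4, Cela1 2 and 4, Try4 2 and 1, Pnlip 2 and 1, Zg16 2 and 2, 2210010C04Rik 1 and 4, and Sycn 1 and 1. Cpa1 and Ctrc had 1 each in control alone. Reg1 and Cela3b with 2 each, and Rnase1, Pla2g1b and Try10 with 1 each, were seen in CD4-Cre alone.

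Prss2 had 11 UMIs in 2 control barcodes and 70 UMIs in 24 CD4-Cre barcodes, 22 of which held no other member. Its gene (chr6:41521787-41525079, plus strand) lies inside the T-cell receptor beta locus, 8121 bases before the Trbd1 segment. All 7 trypsinogens lie between Trbv1 and Trbc2 in the annotation. The 24 Try5 UMIs of CD4-Cre were all in 1 barcode. In the pancreas, Prss2 was the only member in 10 control T barcodes (13 UMIs) and 27 CD4-Cre T barcodes (63 UMIs), 8.84% and 22.0% of its UMIs in that gate. Barcodes with a single member were common among T barcodes with any member RNA. They made 56.0% and 59.8% in the pancreas and 90.9% and 92.6% in the lymph node. Whether Prss2 counts in T cells have a part separate from the other members was not tested. Ctrl, a chymotrypsin-like protease, had 9 UMIs in 9 control barcodes and 10 UMIs in 10 CD4-Cre barcodes of the lymph node, 1 in each. Ctrl (chr8:105932003-105933862, minus strand) starts 1872 bases from the end of Psmb10, an immunoproteasome subunit on the same strand, which had 209 and 223 CPM in the same T barcodes. Where the reads of either gene began was not analysed here.

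The 250 bases before the start of Prss2 and Ctrl are shown with those of Cela1, a member whose counts followed the exocrine make-up. They come from RefSeq (GRCm38.p6), for Prss2 chr6:41521526-41521775 on the plus strand, for Ctrl chr8:105933863-105934112 and for Cela1 chr15:100687921-100688170, both on the minus strand. Capitals mark 3 motifs searched on both strands, the E-box CACCTG and the TC-box TTTCCC, which together form the usual binding site of the acinar factor PTF1, and the TATA motif TATAAA.
Prss2: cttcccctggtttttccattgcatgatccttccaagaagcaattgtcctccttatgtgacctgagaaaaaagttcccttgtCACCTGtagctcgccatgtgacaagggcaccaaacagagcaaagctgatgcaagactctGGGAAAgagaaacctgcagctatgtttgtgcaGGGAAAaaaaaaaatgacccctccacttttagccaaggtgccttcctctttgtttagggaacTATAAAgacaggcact
Ctrl: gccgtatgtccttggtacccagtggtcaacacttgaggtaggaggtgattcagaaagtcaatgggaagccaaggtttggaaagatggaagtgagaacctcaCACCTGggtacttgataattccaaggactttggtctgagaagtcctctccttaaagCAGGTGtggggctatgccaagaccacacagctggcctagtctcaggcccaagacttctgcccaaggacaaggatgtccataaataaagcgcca
Cela1: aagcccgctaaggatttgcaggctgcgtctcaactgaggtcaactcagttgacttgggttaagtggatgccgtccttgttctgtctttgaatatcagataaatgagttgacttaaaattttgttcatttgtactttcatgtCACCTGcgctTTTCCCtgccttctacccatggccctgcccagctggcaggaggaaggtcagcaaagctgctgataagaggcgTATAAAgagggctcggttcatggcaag
A promoter was found for 25 of the 30 members. CACCTG was present in 14 of them, or 56.0%, against 17.2% of 32851 promoters of the same length, TTTCCC in 9, or 36.0%, against 21.9%, and TATAAA in 12, or 48.0%, against 12.4%. Such a match describes the letters and does not show binding.

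Between the pancreas libraries, the member share of T barcodes was level, with a log2 ratio of CD4-Cre over control of 0.03 (-0.05 to 0.11). B barcodes had 0.20 (0.11 to 0.29), NK barcodes -0.16 (-0.56 to 0.24), macrophage barcodes -0.43 (-0.52 to -0.35), dendritic barcodes 1.001 (0.83 to 1.17) and neutrophil barcodes -1.13 (-1.55 to -0.72). The direction was thus not shared by the gates, and single barcodes bore on it. The largest macrophage barcodes held 641 and 831 member UMIs, and without the largest of each library the macrophage value was -0.81. Without the largest dendritic barcodes (71 and 382 UMIs) the dendritic value was 0.35. Without member-rich barcodes macrophages had 0.10 and B barcodes -0.62. These values compare 2 libraries and not genotypes.

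**Figure D5:**
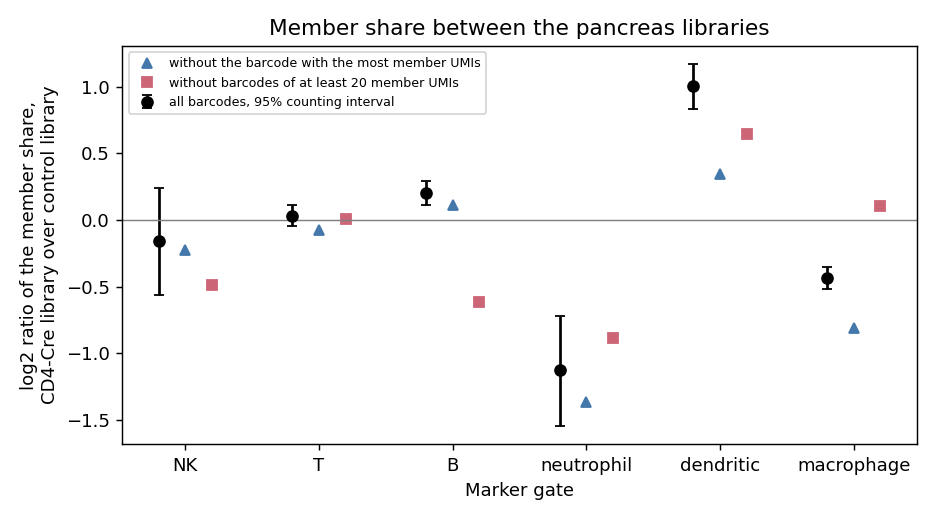
log2 ratio of the member share of UMIs, CD4-Cre over control library, by gate, with 95% counting intervals on the values from all barcodes (circles). Triangles leave out the barcode with the most member UMIs of each library and squares leave out all barcodes with 20 or more. The macrophage value ran from -0.81 to 0.10 and the B value from -0.62 to 0.20 across these settings.

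Gene by gene, few members differed 2-fold between the libraries where counts were high. Of 21 members with at least 20 UMIs over both libraries in T barcodes, 0 were 2-fold higher and 0 were 2-fold lower in CD4-Cre, against 0.925% and 1.8% of all genes. In B barcodes it was likewise 0 and 0 of 21, against 2.14% and 1.22%. In macrophage barcodes 1 of 21 was higher (Pla2g1b) and 0 were lower, against 1.45% and 3.52%, with a median log2 ratio of -0.48 over the members and -0.03 over all genes. In dendritic barcodes 6 of 16 were higher (2210010C04Rik, Cela2a, Cpa1, Ctrb1, Prss2 and Try5) and 0 lower, against 2.34% and 5.04%. In neutrophil barcodes 0 of 5 were higher and 5 of 5 lower (Cela2a, Ctrb1, Pnlip, Prss2 and Try4), against 2.71% and 6.23%, and in NK barcodes 1 of 3 was higher (Prss2) and 1 lower (Ctrb1), against 2.29% and 1.58%. Members found in 1 barcode share that barcode, so these are not independent counts. In dendritic barcodes 46.6% of the CD4-Cre member UMIs were in 1 barcode, and in neutrophil barcodes 76.1% of the control UMIs and 80% of the CD4-Cre UMIs were in 1 barcode each.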

How the data were processed

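Single-cell RNA was measured in 4 libraries. Per the submitters' processing notes the deposited values were made with Cell Ranger on mm10, and per the file headers by software version 3.0.0. The deposited matrices hold UMI counts per gene and barcode as whole numbers, without normalization by the authors. The aligner and annotation versions are not given in the sources used here.

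Barcodes under 500 genes or above 10% mitochondrial UMIs were dropped, except that exocrine barcodes were taken from all listed barcodes. Gates were rebuilt from marker genes, since no cell annotation was used here, and of the lymph node only the T gate was analysed. No doublet caller was run. Barcodes that reached more than 1 gate were left out. Shares are summed member UMIs over summed UMIs, with exact Poisson intervals. Shares of barcodes have exact Clopper-Pearson intervals. Thinning to 1000 UMIs was done once, without shallower barcodes (0 to 25 per gate). The counts of barcodes shared by libraries used the barcode sequences. Scripts used Python 3.11.15, numpy 2.4.6, scipy 1.17.1, pandas 2.3.3 and matplotlib 3.10.9. edgeR 4.0.16 TMM and DESeq2 1.42.0 size factors served as alternative scalings of the ratio between libraries. Other alternatives were other gates, exocrine thresholds and count minimums, per-barcode means and thinning. The member-rich threshold of 20 UMIs and leaving out the largest barcodes were chosen after seeing the data. The ratio interval was tested on simulated Poisson counts only. These lack the uneven spread of member UMIs between barcodes, so its coverage for the member shares was not tested.

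All members were named. Full values were given to the 8 members with the most UMIs in exocrine barcodes, to members with a UMI in lymph node T barcodes, and to those more than 2-fold from their exocrine proportion with at least 20 UMIs. Outside the members, the 10 genes with the highest exocrine to gate ratio were taken, with at least 50 exocrine UMIs in each pancreas library. Not every gene so taken is reported here. Gp2, Klk1 and Gatm were singled out after their values were seen. The members, gene lists and markers were chosen with earlier results of these data known.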

Additional observations from a re-analysis of the deposited data

How the results depend on the processing

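No paired analysis was possible because each group had 1 library and the labels give no shared replicate numbers. The log2 ratios of the member share between the pancreas libraries depended on single barcodes and on how barcodes were weighted. In T barcodes (0.03) the value was -0.21 as a mean of per-barcode shares, -0.35 without barcodes above 2 times the median UMIs, -0.31 and 0.27 at exocrine thresholds of 10% and 40%, and -0.073 without the largest barcode of each library. In B barcodes (0.20) the same settings gave 0.11, -0.13, -0.024, 0.56 and 0.11, looser and stricter gates gave 0.082 and 0.035, thinning gave 0.059, and leaving out member-rich barcodes gave -0.62. In NK barcodes (-0.16) looser gates gave -0.94, the mean -0.89 and thinning -0.92. In macrophage barcodes (-0.43) all listed barcodes gave -0.71, looser gates -1.24, the mean -0.77, thinning -0.98, no barcodes above 2 times the median -0.55, no largest barcode -0.81 and no member-rich barcodes 0.10. In dendritic barcodes (1.001) looser gates gave 1.29, no trypsinogens 0.79, no largest barcode 0.35 and no member-rich barcodes 0.65. In neutrophil barcodes (-1.13) looser gates gave -3.64, the mean -1.64 and thinning -1.66.

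The gate with the highest share was the macrophage gate and that with the lowest the NK gate in each setting that gave a ratio, except that T was lowest in control without member-rich barcodes. In control (22.4) it was 30.7 with stricter gates, 28.8 without barcodes above 2 times the median UMIs and 4.59 without member-rich barcodes. In CD4-Cre (18.5) it was 23.8, 25.3 and 6.70 in these settings, 23.7 after thinning and 14.0 without the largest barcode. Among barcodes that passed the filter, 0% and 0.0453% were exocrine. Members past 2-fold numbered 8 higher and 6 lower over the gates, 18 and 25 at a minimum of 1 UMI, and 5 and 1 at 50 UMIs. The number of members tested and the share of all genes past 2-fold were found only for the counts of 8 and 6. The counts at 1 and 50 UMIs therefore have no background to be judged against. Medians of per-barcode shares were 0 in T, B, NK and neutrophil barcodes and gave no ratio. TMM and DESeq2 size factors moved no ratio beyond its counting interval. The cause of these moves was not tested, beyond the barcodes that a setting removed. Single libraries, with few macrophage, dendritic and neutrophil barcodes, limit every ratio.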
